A study of Mus musculus with 55 samples.

Results

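Egr1, Egr2, Egr3, Nr4a1, Nr4a2, Nr4a3, Ier2, Ier3, Dusp1 and Zfp36 are 10 immediate early genes measured in haematopoietic stem and progenitor cells (HSPCs) of the mouse. They were taken by symbol from the 55421 rows of a count table, and each symbol matched 1 row. The genes were selected on their levels in that table, where several had been seen to be low in progenitors labelled Tet2-/-. Their differences between populations and genotypes in that table are therefore a description. Where the fit across all genes called a member there, the call is given beside the share of all genes called, and it supports nothing about the members. A second count table of 35976 rows, from other libraries, also held all 10 and was not used by the selection rule.

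The first set had 46 RNA-seq libraries of 6 bone marrow populations sorted from WT mice and from Tet2 f/f, Mx1-Cre mice labelled Tet2-/-, on a C57BL/6 background. The populations were long-term and short-term haematopoietic stem cells (LT-HSCs and ST-HSCs), common myeloid progenitors (CMPs), granulocyte-macrophage progenitors (GMPs), megakaryocyte-erythroid progenitors (MEPs) and common lymphoid progenitors (CLPs). Each population had 4 libraries per genotype, except 3 for WT LT-HSCs and 3 for WT ST-HSCs. Deletion was induced at 4 weeks of age with 5 doses of poly(I:C), a double-stranded RNA mimic that raises interferon, and the mice were kept for 16 weeks afterwards. Whether WT mice also received poly(I:C) is not given in the sources used here. The second set had 9 LT-HSC libraries, 3 from WT mice, 3 labelled Sting-/- and 3 labelled double knockout (Tet2 f/f, Sting-/-, Mx1-Cre), with the age at sampling not given in the sources used here. The double knockout mice were given poly(I:C) as well, and whether the Sting-/- and WT mice of this set were is not given. Mx1-Cre is switched on by interferon in many tissues and is not restricted to blood cells. The labels do not name the mice. The study's legends describe each LT-HSC library of the second set as 1 mouse and speak of several mice per group in the first, and whether libraries of different populations share a mouse is not given in the sources used here.

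Immediate early genes are transcribed within minutes of a stimulus, without new protein synthesis. Signals reach them through MAP kinases, through serum response factor and its partners, and through CREB. EGR proteins are zinc-finger transcription factors that bind GC-rich sites, and Egr1 is known for keeping stem cells quiescent in their niche. NR4A proteins are orphan nuclear receptors, and Nr4a1 and Nr4a3 are known to restrain stem cell proliferation and to suppress myeloid leukaemia in mice. Ier2 and Ier3 are small early response proteins. Dusp1 is a nuclear phosphatase that switches off p38, JNK and ERK, and Zfp36 (tristetraprolin) binds AU-rich elements and destabilises cytokine mRNAs, so both limit the response that the others carry forward. Transcripts of this class turn over quickly and are also known to be induced while tissue is dissociated and cells are sorted.

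In the mm10 annotation (GENCODE vM21) the genes lie on different chromosomes, apart from Ier3 (chr17:35821684-35822923) and Dusp1 (chr17:26505590-26562128). Exons of Dusp1 overlap Ergic1 on the opposite strand, and exons of Zfp36 (chr7:28376784-28380253) overlap the antisense gene Gm44710. Overlap was taken with the whole span of the other gene, introns included, so it does not show shared exons. Whether counting used the strand is not given in the sources used here, so reads of any shared exon could not be told apart. RefSeq start windows (GRCm38.p6) were found for 7 of the 10 genes, with 5 alternative starts for Egr2. The 4 windows below are shown because they hold control elements that this class of genes is known for. Each is the 250 bases before the start, 5′ to 3′ on the strand of the gene. Capitals mark the core of the cAMP response element, TGACG or its reverse complement CGTCA, and the CArG box, the site of serum response factor. The windows lie at chr17:26508473-26508722 (minus strand) for Dusp1, chr15:101266596-101266845 (plus strand) for Nr4a1, chr10:67537680-67537929 (plus strand, 1 of the 5 starts) for Egr2 and chr7:28379229-28379478 (minus strand) for Zfp36.
Dusp1: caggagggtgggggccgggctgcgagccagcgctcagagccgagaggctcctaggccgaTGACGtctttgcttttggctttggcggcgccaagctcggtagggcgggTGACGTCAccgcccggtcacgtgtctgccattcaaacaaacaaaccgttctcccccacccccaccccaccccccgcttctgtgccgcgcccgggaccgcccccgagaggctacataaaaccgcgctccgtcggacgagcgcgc
Nr4a1: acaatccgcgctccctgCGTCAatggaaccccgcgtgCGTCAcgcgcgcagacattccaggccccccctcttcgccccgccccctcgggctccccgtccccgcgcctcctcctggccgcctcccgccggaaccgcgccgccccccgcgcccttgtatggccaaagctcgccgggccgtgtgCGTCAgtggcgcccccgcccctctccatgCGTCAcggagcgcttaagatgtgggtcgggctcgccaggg
Egr2: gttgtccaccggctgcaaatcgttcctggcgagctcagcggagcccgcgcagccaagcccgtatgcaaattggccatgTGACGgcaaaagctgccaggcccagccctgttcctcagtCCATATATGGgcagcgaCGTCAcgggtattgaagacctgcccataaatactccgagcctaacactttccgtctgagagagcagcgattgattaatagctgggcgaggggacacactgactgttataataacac
Zfp36: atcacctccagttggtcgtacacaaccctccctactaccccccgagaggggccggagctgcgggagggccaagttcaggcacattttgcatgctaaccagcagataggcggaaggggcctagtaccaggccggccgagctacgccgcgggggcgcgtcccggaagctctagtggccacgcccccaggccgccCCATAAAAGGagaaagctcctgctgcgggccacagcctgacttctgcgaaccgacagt
The full element TGACGTCA was found in Dusp1 alone of the 7 genes, at -143 from the start, and in 1.55% of 32851 mouse windows. The core TGACG was searched on both strands, so a full element counts as 2 overlapping cores. It occurred 3 times in Dusp1, 4 times each in Nr4a1, Nr4a2 and Nr4a3, and 2 times in 3 of the 5 Egr2 windows. It was not in the Ier3 and Zfp36 windows, and 17.8% of all windows held it. A CArG box lay in 4 of the 5 Egr2 windows and in Zfp36, and in 1.47% of all windows. The EGR site GCGGGGGCG lay in Nr4a1 and Zfp36, and in 2.57% of all windows. The letters GCGTGGGCG (an EGR site), TGAGTCA (AP-1) and AAAGGTCA (NR4A) were in none of the 11 windows of these genes, and in 0.536%, 4.46% and 1.34% of all windows. A match describes letters in a window and is not a binding site.

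Library totals ran from 50458473 to 102148079 counts in the first set and from 26776517 to 78682096 in the second. Levels are CPM (counts relative to the library size, after TMM scaling over all libraries of a table), so levels of the 2 tables are not on a common scale. Tet2 was read in libraries labelled Tet2-/- at levels such as 48.0 ± 9.26 CPM in GMPs (SD, n = 4), against 37.7 ± 3.55 in WT (n = 4), and counts over a whole gene do not check the loss of a floxed part. Sting (Tmem173) was read in 2 of the 3 libraries labelled Sting-/-, which had 0, 63.5 and 122 CPM in rising order, while WT libraries had 0, 34.1 and 45.3 and double knockout libraries 0, 0.191 and 26.2, so second-set groups are named as labelled. Mpo was high in GMPs and Gata1 in MEPs, but the erythroid factor Klf1 was 307 ± 80.9 CPM in WT MEPs and 35.1 ± 11.8 in labelled MEPs (SD, n = 4 each), and 47.7 ± 18.6 and 16.9 ± 2.71 in CMPs, both without overlap. The 7 MEP markers, Klf1 among them, summed to 14726 to 19505 CPM in labelled and 13398 to 15366 CPM in WT MEPs, which overlapped. Gata1 overlapped there too, at 256 ± 29.8 CPM in labelled and 235 ± 24.4 in WT MEPs. The part of the Klf1 difference in the CMP and MEP values below was not tested. The CLP libraries held Il7r, but also immunoglobulin mRNA. Summed over 8 B cell markers (6 detected in WT, with Pax5 and Vpreb1 at 0, and 8 in labelled libraries), they had 146142 to 268921 CPM in WT and 896 to 131986 CPM in libraries labelled Tet2-/-. Most of it was Ighm. The 7 GMP markers summed to 4.77 to 3177 CPM (6 detected, Cebpe at 0) and 2.65 to 12453 CPM (7 detected) in the same libraries. Their part in the CLP values below was not tested. In bulk samples fewer expressing cells and less RNA per cell cannot be told apart.

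In WT mice the CLP libraries had the highest mean of 8 of the 10 genes, and stem cells had the highest of the other 2. Nr4a1 averaged 1859 ± 226 CPM in CLPs (SD, n = 4), 614 ± 202 in LT-HSCs (n = 3) and 496 ± 165 in ST-HSCs. It was lower in CMPs at 124 ± 29.3 CPM, then 32.6 ± 17.6 in GMPs and 9.36 ± 4.88 in MEPs. LT-HSCs overlapped ST-HSCs, and GMPs overlapped MEPs, but the steps between did not overlap. Nr4a2 peaked in LT-HSCs at 130.5 ± 51.8 CPM, above every ST-HSC library (68.9 ± 25.3), and was lowest in GMPs (5.92 ± 2.25), which overlapped MEPs. Egr1 had 918 ± 438 CPM in CLPs, 299 ± 19.8 in LT-HSCs and 184 ± 14.8 in ST-HSCs, without overlap between these, and its lowest means were 52.7 ± 27.03 in GMPs and 50.2 ± 13.7 in MEPs. The WT means of these 3 transcription factors were higher in both stem cell populations than in GMPs and MEPs.

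Ier2 and Dusp1 had lower means in stem cells than in CMPs, GMPs and MEPs. Ier2 averaged 116 ± 16.6 CPM in WT LT-HSCs and 112 ± 23.2 in ST-HSCs, which overlapped, and 439 ± 76.5 in CMPs, above all other populations but CLPs (1792 ± 208). Dusp1 averaged 182 ± 88.5 CPM in LT-HSCs, 780.1 ± 252 in CMPs and 783 ± 164 in GMPs, of which the last pair did not differ beyond their spread. Ier3 was highest in ST-HSCs at 570.3 ± 64.4 CPM, above every CMP library (359 ± 71.5). Zfp36 was 2761 ± 516 CPM in CLPs and 114 ± 15.4 in MEPs, and CMPs, ST-HSCs, LT-HSCs and GMPs, with means of 452, 412, 353 and 296 CPM, overlapped from each to the next. Per kilobase of transcript, Ier3 led in WT LT-HSCs with 286 ± 30.9 CPM per kb (n = 3), before Zfp36 (200.01 ± 50.5) and Nr4a1 (121 ± 39.8). In WT MEPs Ier2 (173 ± 13.1 CPM per kb, n = 4) and Dusp1 (172 ± 20.4) led instead. Egr2, Egr3 and Nr4a3 were the 3 lowest per kilobase in every WT population but CLPs. Over the 6 WT populations all 10 genes were called (edgeR quasi-likelihood F test, adjusted p of at most 0.05), where 44.6% of all genes were called. The count was 8 without WT replicate 3 and 9 without WT replicate 5. Leaving out a replicate also lowered the count of all genes called, from 8925 to between 5908 (without replicate 5) and 7640. Over the 6 populations labelled Tet2-/- the count was 8, without Egr2 and Egr3, where 40.2% were called. With CLPs left out, an alternative added after seeing the data, the counts were 9 and 8. The share of all genes called without CLPs is not given, so nothing is read from these counts.

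**Figure D1:**
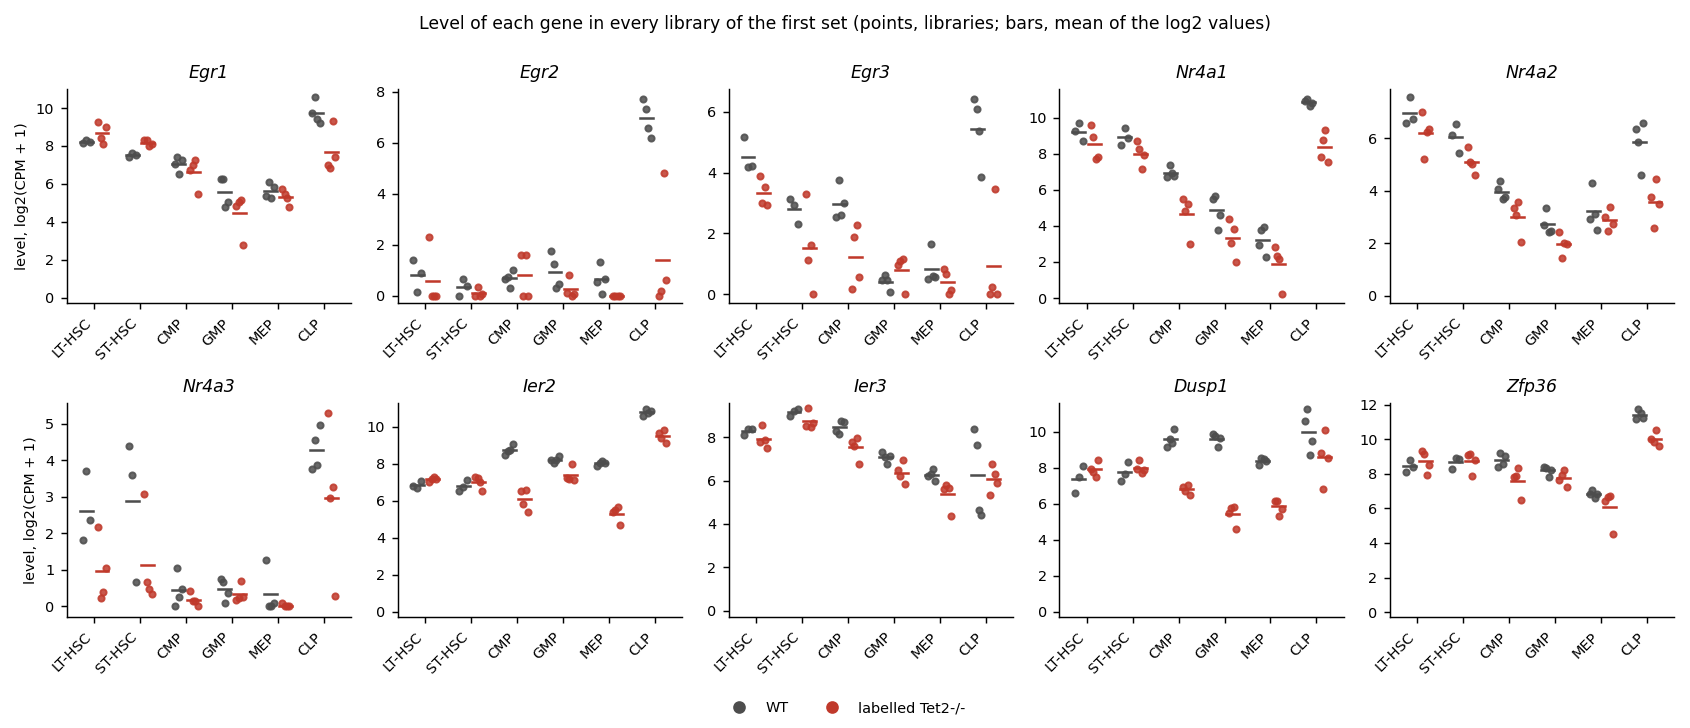
Level of each gene in every library of the first set, as log2(CPM + 1) on the vertical axis, for 6 populations, with WT libraries in grey, libraries labelled Tet2-/- in red and bars for the mean of the log2 values. Red and grey points of Dusp1 and Ier2 separate in CMPs, GMPs and MEPs, while those of LT-HSCs overlap.

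The libraries labelled Tet2-/- were then compared with WT within each population. A gene was called at an edgeR adjusted p of at most 0.05 and at least 2-fold. In CMPs Dusp1, Ier2 and Nr4a1 were called lower, 3 of 10, where 3.92% of all genes were called lower, 0.654% higher and 4.57% in either direction. In GMPs Dusp1 alone was called lower, where the shares were 4.06%, 0.308% and 4.37%. In MEPs Ier2 and Dusp1 were called lower among the 8 tested, where the shares were 4.21%, 0.147% and 4.36%. In LT-HSCs, ST-HSCs and CLPs edgeR called none of the 10, and 0.0245%, 0.0185% and 0.00766% of all genes, each of them higher. At an unadjusted p of 0.05 and 2-fold, those counts were 1, 0 and 5 of 10, beside 547 of 16351, 592 of 16212 and 389 of 13060 genes in all. DESeq2 called 0, 0 and 4 of the 10, beside 237, 331 and 461 genes in all. No member was called higher in any population. Nothing is read from these counts, because the selection used this contrast.

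Counted by library, 7 genes in CMPs had every labelled library below every WT library (9.02% of all genes did, and 6.77% the reverse). In GMPs there were 3 (7.28% and 5.89%), in MEPs 3 of the 8 tested (8.44% and 4.65%), besides Egr2, which was not tested, and in CLPs 6 (1.82% and 2.21%). In LT-HSCs 1 gene was lower in this way (3.84% and 3.20%). In ST-HSCs none was lower and 1 was higher (4.86% and 3.34%). The median log2 fold change of the genes tested was -1.29 in CMPs, -0.92 in GMPs, -1.04 in MEPs, -1.65 in CLPs, -0.57 in ST-HSCs and -0.06 in LT-HSCs. That of all genes lay between 0.03 and 0.07.

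**Figure D2:**
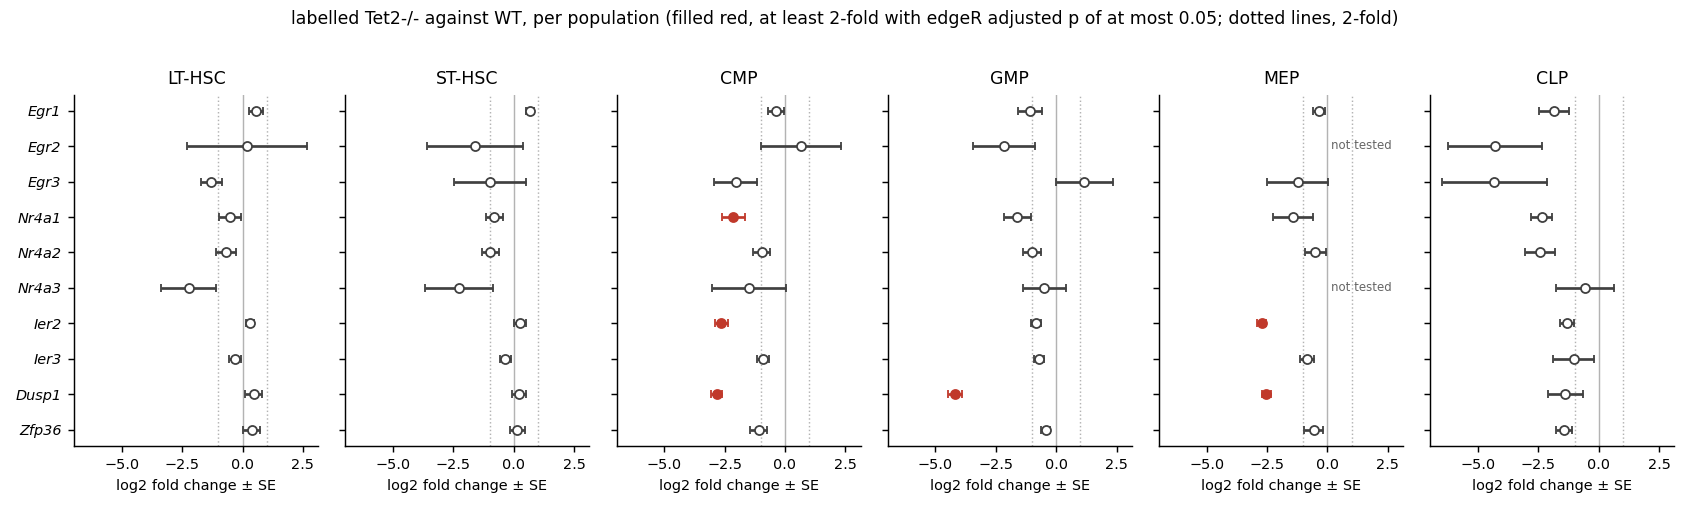
Log2 fold change of each gene, libraries labelled Tet2-/- against WT, with its standard error, in 6 panels for the 6 populations. Filled red points (Dusp1, Ier2 and Nr4a1 in CMPs, Dusp1 in GMPs, Ier2 and Dusp1 in MEPs) were called lower, and the LT-HSC, ST-HSC and CLP panels have none.

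Dusp1, the phosphatase that ends MAP kinase signalling, had its widest separation in GMPs. WT GMPs had 944, 845, 559 and 785 CPM, in the order of their replicate numbers. GMPs labelled Tet2-/- had 43.9, 53.1, 54.3 and 23.1 CPM. The lowest WT library stood far above the highest labelled one, and the fitted difference was 18.3-fold (log2 fold change -4.20 ± 0.28, SE). WT CMPs had 569.9, 768, 645 and 1137 CPM and labelled CMPs 123, 103, 131 and 88.8 CPM. Here too the groups did not overlap, and the difference was 7.07-fold (log2 fold change -2.82 ± 0.23). WT MEPs had 278, 365, 359 and 334 CPM and labelled MEPs 71.1, 70.8, 38.9 and 51.5 CPM, again without overlap and with a 5.78-fold difference (log2 fold change -2.53 ± 0.20).

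Dusp1 in stem cells showed no such separation. WT LT-HSCs had 95.6, 178 and 272 CPM and labelled LT-HSCs 241, 219, 179 and 342 CPM, which overlapped (log2 fold change 0.46 ± 0.36). WT ST-HSCs had 153, 200.5 and 320.2 CPM and labelled ST-HSCs 244, 348, 204 and 234 CPM, which overlapped too (0.23 ± 0.28). The order of populations differed between genotypes. In WT mice the mean was lowest in LT-HSCs, which overlapped ST-HSCs, and in labelled libraries it was lowest in GMPs at 43.6 ± 14.5 CPM, which overlapped MEPs. In WT CLPs Dusp1 was 1528, 2438, 412 and 712 CPM, and in labelled CLPs it was 443, 113, 1097 and 365 CPM, with overlap.

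Ier2, a small early response protein, separated in CMPs and MEPs as Dusp1 did, and by less in GMPs. WT CMPs had 358, 420.5, 434 and 542 CPM and labelled CMPs 91.9, 55.6, 96.3 and 40.6 CPM. The groups did not overlap and differed 6.23-fold (log2 fold change -2.64 ± 0.28). WT MEPs lay close together at 237, 263, 285 and 267 CPM, and labelled MEPs had 40.5, 45.01, 50.3 and 24.5 CPM, a 6.62-fold difference without overlap (-2.73 ± 0.20). WT GMPs had 291, 267, 289.8 and 348 CPM and labelled GMPs 147, 146, 253 and 137 CPM. These groups did not overlap, with a log2 fold change of -0.84 ± 0.19, under 2-fold. Without labelled GMP replicate 4, the highest of its group, it was -1.10 and called.

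Ier2 in WT LT-HSCs was 109, 103 and 134 CPM and in labelled LT-HSCs 126, 144, 155 and 145 CPM. The groups overlapped, with a log2 fold change of 0.31 ± 0.18. In ST-HSCs they overlapped as well (0.26 ± 0.23). WT CLPs had 1529, 2022, 1745 and 1872 CPM and labelled CLPs 800.3, 683, 925 and 561 CPM, without overlap (-1.32 ± 0.29, not called). Ier3, known for a part in cell survival, differed by less than 2-fold in myeloid progenitors. Its log2 fold change was -0.92 ± 0.24 in CMPs (109 to 247 CPM in labelled, 281 to 422 in WT) and -0.85 ± 0.28 in MEPs (19.9 to 54.5 and 62.5 to 91.5), both without overlap. In GMPs (-0.71 ± 0.21) the groups overlapped.

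Ier3 in WT CLP libraries split widely, at 335, 197, 23.95 and 20.4 CPM in replicates 2 to 5. The same libraries had Mpo, a granulocyte enzyme, at 1807, 739, 2.61 and 27.5 CPM. The part of that in Ier3 was not tested.

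Nr4a1, the receptor most abundant in stem cells, was called lower in CMPs. Whether populations differed in this was not tested. WT CMPs had 102, 166, 122 and 106 CPM and labelled CMPs 43.3, 27.5, 36.3 and 7.002 CPM, without overlap (log2 fold change -2.14 ± 0.46). The call was lost without any one of labelled replicates 3 or 4 or WT replicates 3, 4 or 5, at log2 fold changes of -2.27 to -1.96. In GMPs it had 12.6 to 49.8 CPM in WT and 2.93 to 19.7 in labelled libraries, which overlapped (-1.61 ± 0.55). In MEPs it had 3.93 to 14.3 and 0.151 to 6.23 CPM, which overlapped too (-1.43 ± 0.82). These are low levels for this gene, under the stem cell range.

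Nr4a1 in WT CLPs was 1961, 2106, 1583 and 1784 CPM, and in labelled CLPs 228, 436, 625 and 184 CPM. The groups stood well apart, 5.15-fold (log2 fold change -2.37 ± 0.44), which DESeq2 called and edgeR did not. WT LT-HSCs had 607, 819 and 416 CPM and labelled LT-HSCs 766, 492, 209 and 228 CPM, with overlap (-0.52 ± 0.47). WT ST-HSCs had 350.4, 675 and 463 CPM and labelled ST-HSCs 414, 311, 139 and 244 CPM, with overlap (-0.80 ± 0.36).

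Nr4a2 had log2 fold changes from -0.51 ± 0.44 in MEPs, where the value without WT replicate 3 was 0.06, to -2.44 ± 0.61 in CLPs. Labelled and WT libraries did not overlap in CMPs (3.12 to 10.9 and 11.9 to 19.6 CPM), GMPs (1.71 to 4.36 and 4.41 to 9.22) and CLPs (4.91 to 20.9 and 23.6 to 94.1). In LT-HSCs labelled libraries had 127, 36.1, 74.2 and 81.2 CPM and WT libraries 95.7, 189.96 and 106 CPM, which overlapped. Nr4a3, the third receptor, stayed at or below 1.42 CPM in every CMP, GMP and MEP library, and did not pass the low-count filter in MEPs. In LT-HSCs it had 2.49, 12.1 and 4.10 CPM in WT and 3.54, 0.180, 0.313 and 1.07 CPM in labelled libraries, which overlapped. In stem cells the log2 fold changes of all 3 receptors were below 0 and those of Egr1, Ier2, Dusp1 and Zfp36 above 0, in LT-HSCs and ST-HSCs alike, and edgeR called none of them. Of these, Zfp36 in ST-HSCs alone changed sign on leaving out 1 library (-0.015 without WT replicate 2).

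Egr1 had the single stem cell difference in which every labelled library lay above WT. WT ST-HSCs had 169, 198 and 185 CPM and labelled ST-HSCs 313, 320.4, 250.2 and 273 CPM (log2 fold change 0.68 ± 0.16, under 2-fold). WT LT-HSCs had 285, 321 and 290.1 CPM and labelled LT-HSCs 604, 346, 274 and 519.7 CPM. Of the latter, 3 were above and 1 was below all WT libraries. Egr1 groups overlapped in CMPs (-0.37 ± 0.34), GMPs (-1.09 ± 0.50) and MEPs (-0.34 ± 0.25). In CLPs WT libraries had 844, 1557, 673 and 597 CPM and labelled ones 129, 115, 631 and 173 CPM. Labelled replicate 4 alone reached the WT range, and without it the log2 fold change moved from -1.85 to -2.78.

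In the first set Egr2 was at most 3.92 CPM outside CLPs. WT CLPs had 210.2, 161, 95.04 and 72.1 CPM of Egr2, and labelled CLPs 0, 0.131, 27.2 and 0.538 CPM. Egr3 in the same libraries was 84.8, 66.6, 40.3 and 13.5 CPM and 0, 0.183, 10.1 and 0 CPM. Neither pair overlapped, and labelled replicate 4 was the highest of its group for both. Egr3 was also lower without overlap in labelled LT-HSCs (6.72 to 13.9 against 17.1 to 35.3 CPM, -1.29 ± 0.43) and CMPs (0.127 to 3.84 against 4.79 to 12.6 CPM, -2.03 ± 0.89). In MEPs labelled Tet2-/-, Egr2 had 0 counts in 4 of 4 libraries, and WT libraries had 4 to 109 counts. A reading of 0 allows up to 3 counts in each library, a limit that covers counting error only. Egr2 did not pass the low-count filter in MEPs.

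Zfp36, which destabilises cytokine mRNAs, was lower without overlap in CMPs and CLPs. WT CMPs had 331, 583, 371 and 523 CPM and labelled CMPs 220.1, 229, 323 and 86.9 CPM (log2 fold change -1.09 ± 0.35), which DESeq2 called and edgeR did not. CLPs had 2319.8 to 3409 CPM in WT and 782 to 1501 in labelled libraries (-1.44 ± 0.33), with the same outcome. In GMPs (-0.44 ± 0.20) and MEPs (-0.57 ± 0.39) the groups overlapped. They also overlapped in LT-HSCs (0.38 ± 0.35) and ST-HSCs (0.14 ± 0.30).

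Several other measures differed between genotypes in the same libraries. Mitochondrial counts made up 7.85% to 8.37% of labelled CMP libraries and 5.94% to 6.57% of WT CMP libraries, and 4.74% to 5.09% and 3.64% to 4.60% in GMPs. In ST-HSCs they made up 10.0% to 13.1% of labelled and 8.73% to 9.02% of WT libraries, again without overlap. In MEPs the ranges overlapped, in LT-HSCs the medians were 12.7% and 9.12%, and in CLPs they were 6.03% and 2.73%. In CMPs the 7 MEP markers, all detected in both genotypes, summed to 2938 to 5790.3 CPM in labelled and 702 to 1701 CPM in WT libraries, without overlap. In GMPs they summed to 174 to 194 and 102 to 125 CPM, also without overlap. The 8 B cell markers were lower without overlap in labelled CMPs (102 to 123 CPM, with 6 detected) than in WT CMPs (164 to 234 CPM, with 8 detected). In GMPs the B cell sums overlapped between genotypes (116 to 134 and 124 to 176 CPM). The 9 LT-HSC markers were higher without overlap in labelled GMPs (314 to 354 against 212 to 276 CPM, with 9 and 8 detected, Hoxb5 at 0 in WT). The same held in MEPs (329 to 361 against 262 to 306 CPM, with 8 and 9 detected, Fgd5 at 0 in labelled) and LT-HSCs (936 to 1086 against 608 to 903 CPM, all detected). In GMPs and MEPs the listed Slamf1, Procr and Hlf overlapped between genotypes, with means of at most 9.20 CPM. Other genes of the list thus made up most of those sums. The list also holds Kit, a marker by which GMPs and MEPs were sorted. The GMP markers overlapped between genotypes in CMPs (3494 to 3816 and 3804 to 5308 CPM) and GMPs (36737 to 46083 and 31873 to 43965 CPM). The part of these measures in the gene differences was not tested.

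A list of 42 other immediate early genes was written from general knowledge. In CMPs 18 of 39 tested were called lower, in GMPs 11 of 38 and in MEPs 9 of 34, where 3.92%, 4.06% and 4.21% of all genes were, and none was called higher. The list's median log2 fold changes were -1.23, -0.74 and -1.14. In CMPs the largest were Plk2 (-2.71 ± 0.32), Fosl2 (-2.64 ± 0.51), Csrnp1 (-2.59 ± 0.25), Plk3 (-2.44 ± 0.49) and Trib1 (-2.29 ± 0.35). In GMPs they were Nfil3 (-3.75 ± 0.42), Tnfaip3 (-2.78 ± 0.33), Jun (-2.72 ± 0.25), Dusp2 (-2.47 ± 0.61) and Klf2 (-2.41 ± 0.48). In MEPs they were Junb (-2.68 ± 0.45), Dusp5 (-2.14 ± 0.50), Tnfaip3 (-2.13 ± 0.45), Jund (-1.81 ± 0.32) and Nfkbia (-1.502 ± 0.26). Of these 15 calls, Dusp2 in GMPs was lost in 6 of 8 fits that left out 1 library, Dusp5 in MEPs in 6, Tnfaip3 in MEPs in 3, Fosl2 in CMPs without labelled replicate 5 and Plk3 in CMPs without labelled replicate 3. Jun, Junb, Jund and Fosl2 are AP-1 subunits, and Tnfaip3 and Nfkbia restrain NF-kB. In LT-HSCs, ST-HSCs and CLPs edgeR called none of the 40, 40 and 37 tested, of which 25, 31 and 32 had a log2 fold change below 0, with medians of -0.14, -0.42 and -1.01. In CLPs the list summed to 5984 to 11267 CPM in labelled and 18468 to 27475 CPM in WT libraries (40 of 42 detected in each, Ccn1 and Egr4 at 0), without overlap. There the lowest were Atf3 in LT-HSCs (-1.74 ± 0.42) and ST-HSCs (-2.46 ± 0.43) and Plk3 in CLPs (-2.42 ± 1.57), and the highest were Per1 (1.05 ± 1.02), Jun (0.81 ± 0.18) and Btg1 (0.22 ± 0.43).

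Of 30 genes upstream (MAP kinases, CREB and serum response factor partners), Map2k2 (-1.33 ± 0.20) and Map2k1 (-1.24 ± 0.28), kinases that activate ERK, were called lower in CMPs, 2 of 30 tested, where 3.92% of all genes were. Map2k2 was also called lower in GMPs (-2.81 ± 0.27). The Map2k1 call was lost in 5 of 8 fits that left out 1 library. None was called in MEPs, where Creb1 was lowest (-1.10 ± 0.44) and Rps6ka3 highest (1.03 ± 0.30). Of 12 heat shock genes, listed as a measure of handling stress, Dnajb1 in MEPs alone was called (-1.21 ± 0.24, 1 of 9 tested, where 4.21% of all genes were lower), and lost without labelled replicate 5 or WT replicates 4 or 5. The heat shock sums overlapped between genotypes in CMPs (6415 to 8737 CPM labelled, 6515 to 7596 WT), in GMPs and in MEPs.

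The 10 genes varied together from library to library within a group. After centring on group means, 44 of 45 gene pairs had a Pearson r above 0 over 46 libraries, with a median of 0.351. The highest was 0.815 for Nr4a1 with Zfp36, and the lowest -0.03 for Nr4a3 with Ier3. The median was 0.214 over the 22 WT and 0.398 over the 24 labelled libraries. Without labelled replicate 5 of every population it was 0.264, with 41 of 45 pairs above 0. Libraries share populations and handling, so these values are a description. Averaged over the 10 genes, labelled replicate 5 was the lowest of its group in 5 of 6 populations. Its mean log2 deviation was -1.31 in CMPs, -1.02 in GMPs, -0.91 in CLPs, -0.87 in MEPs and -0.77 in ST-HSCs. WT deviations lay between -0.64 and 0.56, and the highest of all was 1.84 in labelled CLP replicate 4. Without replicate 5, Dusp1 had log2 fold changes of -2.73 in CMPs, -3.98 in GMPs and -2.49 in MEPs. Ier2 had -2.45 in CMPs and -2.56 in MEPs, and these 5 differences stayed called.

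**Figure D3:**
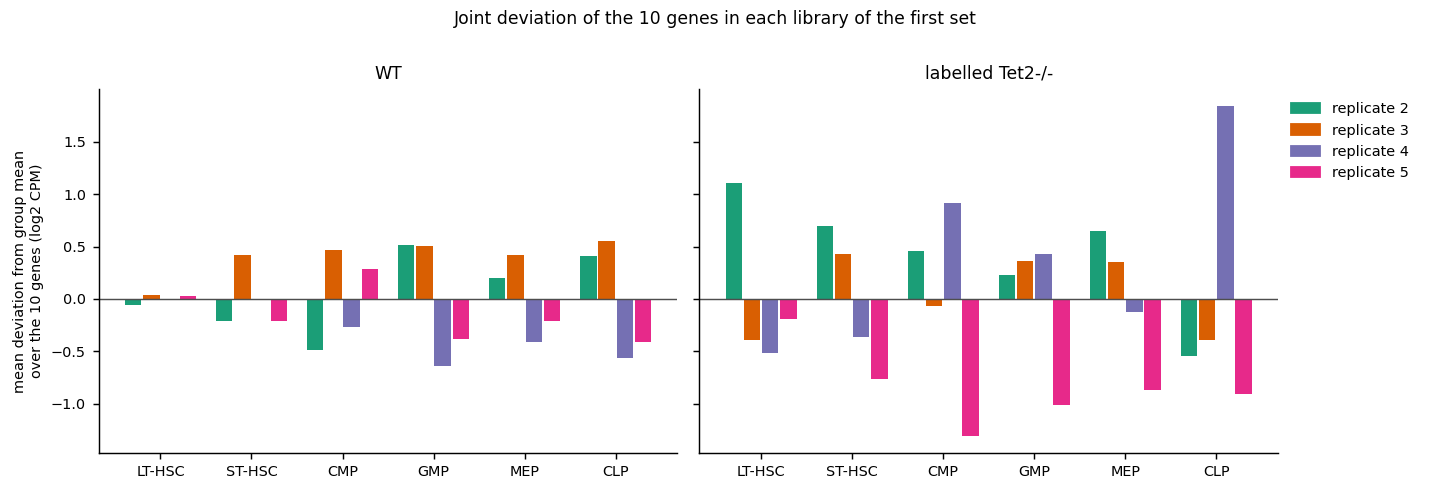
Mean deviation from the group mean over the 10 genes (log2 CPM, vertical axis) of each library of the first set, by population and genotype. The lowest value, -1.31, is labelled CMP replicate 5 and the highest, 1.84, is labelled CLP replicate 4.

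Genes with a pattern like that of 4 members were sought among 18887 genes, by Pearson r of log2 CPM over the 46 libraries. Zfp36 was most like Fos (0.948), Fosb (0.937) and Atat1 (0.920). Nr4a1 was most like Cytip (0.937), Dusp5 (0.929) and Klf4 (0.921). Egr1 was most like Klf4 (0.878), Zbtb20 (0.876) and Gimap6 (0.870). Dusp1 was most like Gltp (0.875), Tmem123 (0.873) and Csnk1a1 (0.853). After centring on group means these values lay between 0.193 (Egr1 with Gimap6) and 0.715 (Zfp36 with Fosb). Chosen on the deviations from group means instead, none of these 12 nearest genes was among the 3 nearest of its member. The nearest were then Btg2 for Zfp36 (0.770), Ppp1r18 for Nr4a1 (0.721), Ccnl1 for Egr1 (0.729) and Srsf6 for Dusp1 (0.799).

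The second set asked how LT-HSCs labelled Sting-/- and double knockout compared with WT. Ier2 was the one member called. WT libraries had 1876, 1101 and 1647 CPM, Sting-/- libraries 492, 305 and 281 CPM and double knockout libraries 50.8, 67.99 and 42.6 CPM. The 3 groups did not overlap. Against WT, Ier2 in the double knockout had a log2 fold change of -4.91 ± 0.36 (95% interval -5.73 to -4.08, edgeR adjusted p = 0.00341), lower in 3 of 3 libraries, where 0.657% of all genes were called, 0.616% lower and 0.0410% higher. Leaving out any 1 of the 6 libraries kept the call, with log2 fold changes from -5.10 to -4.69. The exact permutation p, 2-sided, was 0.1, the smallest that 3 against 3 libraries allow.

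Against Sting-/-, Ier2 in the double knockout had a log2 fold change of -2.70 ± 0.40 (95% interval -3.63 to -1.78, edgeR adjusted p = 0.0651), which missed the threshold, where 0.159% of all genes were called, each lower. For Sting-/- against WT it was -2.11 ± 0.32 (95% interval -2.86 to -1.37, edgeR adjusted p = 0.682, unadjusted p = 0.000205). In that comparison edgeR called 0 of 9969 genes, 357 passed an unadjusted p of 0.05 with 2-fold, and DESeq2 called 414, Ier2 among them. The comparisons share libraries and are not independent. No second-set library labelled Tet2-/- alone was analysed here, so the effect of the Tet2 lesion on the WT background was not compared in this set. The heat shock sum was 10720.4 to 14517 CPM in double knockout, 7186 to 9147 in Sting-/- and 7626 to 8296 in WT libraries, without overlap between the double knockout and either other group. Of 7 T and NK cell markers, Trac had no row for this set, and Cd3d, Cd3e, Cd3g, Gzma and Klrd1 were at 0 in all 9 libraries. Their sum was therefore Nkg7 alone. Nkg7 was higher without overlap in double knockout (76.9 to 121 CPM) than in WT libraries (45.4 to 60.2), and Sting-/- libraries (37.7 to 114) overlapped both. The 6 endothelium and stroma markers, with 3 detected in double knockout and 2 in the other groups and with Cdh5, Col1a1 and Lepr at 0 throughout, summed to 36.5 to 76.1 CPM in double knockout, below both WT (86.3 to 123) and Sting-/- libraries (106 to 157). The 7 MEP markers were lower without overlap in Sting-/- (29.2 to 92.7 CPM, with 5 detected, Gata1 and Klf1 at 0) than in WT (107 to 198 CPM, with 6 detected) and double knockout libraries (106 to 122 CPM, with 5 detected). The 8 neutrophil markers, with 3 detected in each, were lower without overlap in Sting-/- (0.0662 to 0.154 CPM) than in WT libraries (0.175 to 6.33 CPM). The part of these measures in Ier2, Dusp1 and the other genes was not tested.

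**Figure D4:**
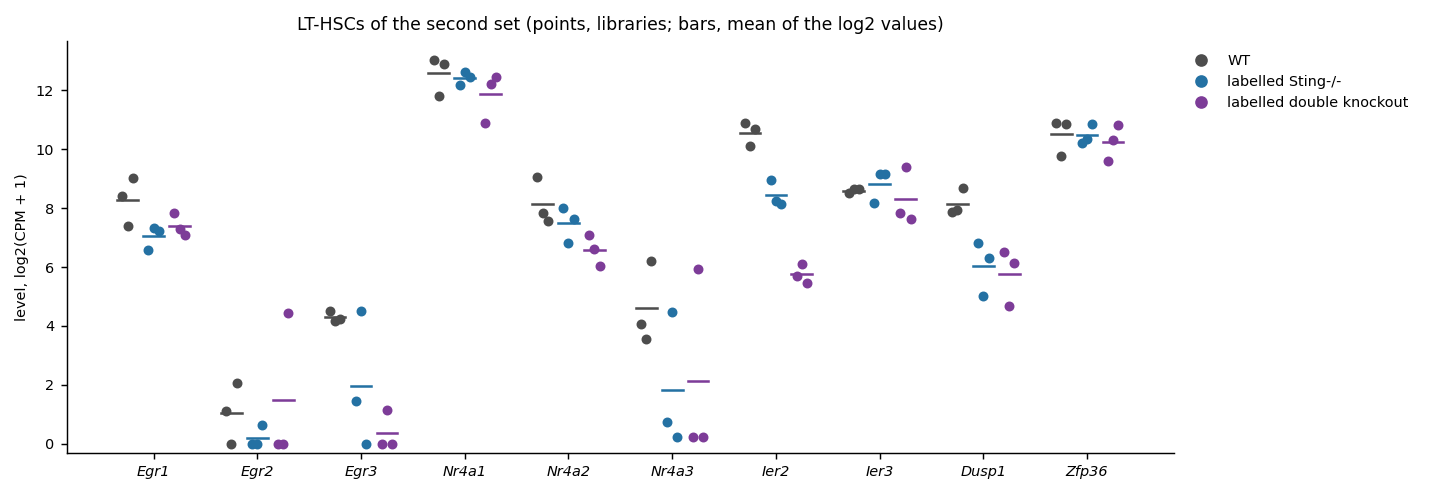
Level of each gene in the 9 LT-HSC libraries of the second set, as log2(CPM + 1), by labelled genotype, with bars for the mean of the log2 values. Ier2 descends over the 3 groups without overlap, and Dusp1 is lower in both knockout groups than in WT.

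Dusp1 in the second set was 230.5, 243 and 405 CPM in WT, 112, 31.6 and 77.9 CPM in Sting-/- and 91.1, 24.6 and 68.5 CPM in double knockout libraries. Both knockout groups lay below WT without overlap and overlapped each other. The log2 fold changes were -2.31 ± 0.56 for double knockout against WT (95% interval -3.60 to -1.03, edgeR adjusted p = 0.141, called by DESeq2) and -2.002 ± 0.52 for Sting-/- against WT (edgeR adjusted p = 0.709). Double knockout against Sting-/- gave -0.21 ± 0.84 (95% interval -2.15 to 1.73). Nr4a2 had 534, 226 and 189.7 CPM in WT and 136, 97.9 and 64.9 CPM in double knockout libraries, without overlap (-1.74 ± 0.52, edgeR adjusted p = 0.195). Egr3 had 21.9, 16.8 and 17.8 CPM in WT and 0, 1.20 and 0 CPM in the double knockout, and in Sting-/- it spread over 1.73, 21.6 and 0 CPM. Egr1 was 94.1 to 161 CPM in Sting-/- and 167 to 517 CPM in WT, without overlap (-1.35 ± 0.46, edgeR adjusted p = 0.827).

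In all, 4 of the 10 genes had every double knockout library below every WT library, where 13.9% of all genes did and 11.2% the reverse. Against Sting-/- it was 1 gene (10.9% and 7.76%), and for Sting-/- against WT 3 genes (7.34% and 6.46%). Nr4a1 overlapped between the groups at 3532 to 8329 CPM in WT, 4651 to 6237 in Sting-/- and 1881 to 5628 in double knockout libraries (double knockout against WT -0.74 ± 0.46, 95% interval -1.80 to 0.32). It was the highest of the 10 per kilobase in all 3 groups. Zfp36 (95% interval -1.28 to 0.58) and Ier3 (-1.22 to 0.97) overlapped between double knockout and WT as well. Nr4a3 reached 59.7 CPM in double knockout replicate 2 and under 1 CPM in the other libraries of that group, and Egr2 20.8 CPM in replicate 3 and 0 in the others. Among the 42 other immediate early genes, Junb (-6.40 ± 0.66, edgeR adjusted p = 0.00854) and Nfkbia (-3.37 ± 0.40, adjusted p = 0.0132) were called lower in the double knockout against WT, 2 of 38 tested, where 0.616% of all genes were. The same 2 of 38 were called against Sting-/-, where 0.159% of all genes were (-4.71 ± 0.62 and -4.22 ± 0.42). Of the heat shock genes, Dnajb1, 1 of 9 tested, was called lower in both comparisons (-4.62 ± 0.43 and -4.18 ± 0.51). These 3 calls against Sting-/- were lost on leaving out any 1 of the 6 libraries. Against WT, Junb and Dnajb1 were lost without WT replicate 3 or double knockout replicate 3, and Nfkbia was kept only without double knockout replicate 2. No upstream gene was called.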

How the data were processed

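The deposited files were 2 tables of raw counts per gene, which the authors made from sorted cells (200 per sort in the labels) by full-length SMART-seq libraries, trimming with Trim Galore and alignment to mm10 with HISAT2. The submitters' processing notes list versions 0.6.7 and 7.5.0, which differ from those in the study's methods, and also mm9, with no role. The counting tool and strand are not given in the sources used here. Each table was analysed alone in R 4.3.3, with edgeR 4.0.16 (quasi-likelihood test of the groups compared, TMM factors, filterByExpr, prior count 2) and adjustment by Benjamini-Hochberg over all genes tested. Alternatives were DESeq2 1.42.0, RLE factors, no filter, a replicate block, an unadjusted p and leaving out libraries. Lengths came from the second table, of which 2 broken lines were not used. Members, lists and tests were chosen with earlier results of these data known. All 10 members were named; from the lists, up to 5 called genes per direction by size, or else the extremes at 10 CPM or more. A listed item is not reported here. The scripts were tested on simulated data.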

Additional observations from a re-analysis of the deposited data

Results flagged for a closer look

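In 99 sets of 4 libraries (1 gene, 1 population, 1 genotype), 11 had a library whose gap to the nearest other was over Dixon's 95% limit as a share of the range. Chance flags about 1 in 20 sets of normally distributed values, which CPM near 0 are not (where 3 libraries are at 0, any other above 0 is flagged), so the 11 were not read against that rate. In each case the outlying library was the highest. CLP replicate 4 labelled Tet2-/- stood apart for Egr1 (631 CPM, the others 115 to 173), Egr2 (27.2 CPM, the others at most 0.538) and Egr3 (10.1 CPM, the others at most 0.183). Labelled GMP replicate 4 stood apart for Ier2 (253 CPM, the others 137 to 147) and Nr4a3 (0.616 CPM, the others at most 0.203). Labelled replicate 2 stood apart for Egr2 in LT-HSCs (3.92 CPM, the others 0), Nr4a3 in ST-HSCs (7.35 CPM, the others at most 0.589) and Nr4a3 in MEPs (0.0619 CPM, the others 0). Egr2 in labelled GMP replicate 3 (0.773 CPM), Egr3 in WT MEP replicate 3 (2.12 CPM) and Nr4a3 in WT MEP replicate 2 (1.42 CPM) were the rest.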

How the results depend on the processing

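No fold change of a member that edgeR had called changed sign under any alternative run, and the causes of the shifts below were not tested. DESeq2 called 237, 331, 1234, 1049 and 461 genes in LT-HSCs, ST-HSCs, CMPs, MEPs and CLPs, and 794, 414 and 1351 in double knockout against Sting-/-, Sting-/- against WT and double knockout against WT. At an unadjusted p with 2-fold the counts were 547, 592, 1292, 1169, 1085 and 389 in LT-HSCs, ST-HSCs, CMPs, GMPs, MEPs and CLPs, and 662, 357 and 1103 in the second set. Without the low-count filter they were 47 in double knockout against Sting-/- and 105 against WT. Of the 10 genes, DESeq2 called 2 in GMPs, 4 in CLPs and 1, 1 and 2 in the second set, and the unadjusted p 1, 5, 3 and 5 in LT-HSCs, CMPs, GMPs and CLPs and 1, 3 and 3 in the second set. The count of all genes that DESeq2 called in GMPs is not given, so nothing is read from the 2 there. Without the filter 1 was called in double knockout against Sting-/-. The replicate numbers were not taken as pairing WT with labelled libraries, since none of 22 same-numbered pairs had r above 0.1. Between populations, 5 of 60 same-numbered labelled pairs (highest 0.166) and 1 of 51 WT pairs did, and the population counts of 10 and 8 members were the same with the block. With the replicate block 2 genes were called in LT-HSCs, 0 in CLPs, 0 in double knockout against Sting-/- and 26 in double knockout against WT, and the members called stayed the same in number.

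Leaving out 1 library gave 0 to 1 genes called in CLPs (0 without WT replicate 2, 3 or 5), 0 to 0 in double knockout against Sting-/- (all libraries 15), 2 to 41 in double knockout against WT (all libraries 64, with 2 without WT replicate 3 or double knockout replicate 3), 5908 to 7640 over WT populations (5908 without replicate 5) and 4752 to 6887 over labelled ones (4752 without replicate 4 and 4995 without replicate 5). Members called ranged from 1 to 2 in GMPs (2 without labelled replicate 4, with Ier2) and from 2 to 3 in MEPs (3 without WT replicate 4, with Egr2), and from 8 (without replicate 3) to 10 over WT populations. All genes called ranged from 608 to 734 in GMPs (all libraries 723) and from 520 to 767 in MEPs (all libraries 651). The members' median log2 fold change ranged from -2.42 (without labelled replicate 4) to -1.40 in CLPs, and from -0.85 (without double knockout replicate 2) to -0.094 in double knockout against Sting-/-. Egr2 and Nr4a3 in CMPs, GMPs and MEPs, and Egr3 in GMPs and MEPs, had group means of at most 1.08 CPM. Egr3 was read at more in WT CMPs, with 322 to 982 counts. The part of sequencing depth in these values was not tested.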
